A study of Mus musculus with 36 samples.

Results

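The back-splice junctions described here come from 2 kinds of place in the mouse genome that hold few ordinary genes. These places are the Gm26917 region of chromosome 17, which carries a copy of the ribosomal RNA (rRNA) gene, and the contigs with no known position along a chromosome. All listed junctions on chromosome 17 with start and end between 39842000 and 39849000 (GRCm38) were taken, on either strand, together with all junctions on sequences whose names do not start with chr. This gave 105 junctions of 33261 listed in the series, 100 in the region and 5 on contigs. In the hippocampus they were 77 of 23734 (72 in the region), and in the frontal cortex 57 of 19811 (52 in the region). The places were chosen by values measured in these samples: a junction of Gm26917 had been noted for DESeq2 calls between times of day, mainly in the hippocampus and for 1 step in the frontal cortex, and a junction of contig JH584304.1 for its reads in the frontal cortex. Those comparisons are therefore given below as descriptions.

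Total RNA of adult male C57BL/6 mice (C57BL6/N in the study's methods) was sequenced after rRNA depletion. Each tissue has 18 samples, 3 replicates at each of 6 zeitgeber times (ZT, hours after lights on): ZT1, ZT5 and ZT9 in the light phase, ZT13, ZT17 and ZT21 in the dark phase. The labels give no treatment, animals had been perfused to remove blood, and nothing in the labels says whether tissues with the same replicate number came from one animal. P-values therefore measure only the spread between these samples. The hippocampus table has a further column for ZT1 replicate 3, which is given separately.

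A circRNA forms when a splice donor is joined to an acceptor that lies upstream of it, so that the exons between them close into a ring, and such rings are abundant in the brain. A sequencing read across that join is a circular read, and the junction is named by the first and last base of the ring. rRNA is made by RNA polymerase I from many tandem copies of one gene. The precursor starts with an external spacer, followed by the 18S rRNA, an internal spacer and the remaining rRNAs, and the spacers are cut away and degraded. It is not known for splicing. Most copies of the repeat are missing from the mouse assembly, so reads from many copies can gather on the few that are placed. Unplaced contigs, as the word is used here, are pieces of assembled sequence with no known position along a chromosome, and often resemble placed sequence.

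The identity of the region was read from GENCODE vM21 transcripts of the same build. An 18S stretch lies at chr17:39846353-39848201, 1849 bases long, where an rRNA gene (CT010467.1) is annotated on the minus strand. The annotation under that name also runs past the end of the stretch. On the plus strand it opens and closes with the bases by which mammalian 18S rRNA is known, so the plus strand is taken here as that of the precursor.
18S start: tacctggttgatcctgccag
18S end: aacctgcggaaggatcatta
Gm26917, a long non-coding RNA gene on the plus strand at chr17:39843013-39846341, lies directly ahead of it, where the external spacer of the precursor is expected. Another annotated gene, Gm42418 (chr17:39846958-39848788), overlaps most of the 18S stretch and runs past its end.

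The region's junctions lay almost wholly in Gm26917 and hardly at all in the 18S rRNA. Of the 100 junctions, 91 were inside Gm26917, with 3689 of the region's 4120 reads (89.5%). A single junction, with 2 reads, lay in the 18S stretch, and the other 8, with 429 reads, came after it. The 18S stretch holds 207 possible starts and 196 possible ends (bases next to AG or GT on either strand), against 201 and 564 in the longer Gm26917. GC content was 69.1% in Gm26917 and 55.4% in the 18S stretch. The libraries had been depleted of rRNA, and how far that lowered the reads of the 18S stretch was not tested. The frontal cortex had 96.6% of its region reads in Gm26917 and the hippocampus 86.1%, and most of the rest came after the 18S stretch.

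**Figure D1:**
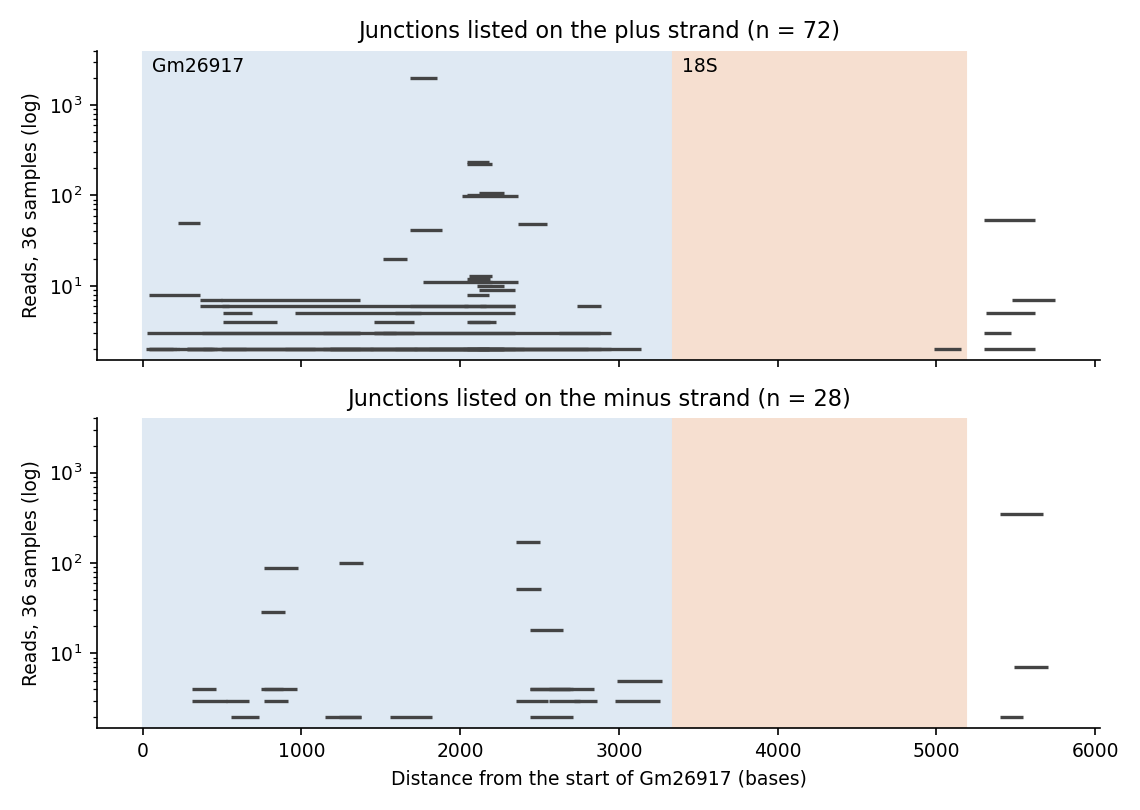
Each line is 1 junction of the Gm26917 region, drawn from its first to its last base (x axis, bases from the start of Gm26917) at its number of reads over 36 samples (y axis, log), with plus-strand junctions above and minus-strand junctions below; blue marks Gm26917 and orange the 18S stretch. The blue part holds 91 of the 100 junctions, and the orange part 1.

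Junctions were listed on both strands, 72 on the strand of the precursor with 3245 reads and 28 on the opposite strand with 875 reads. The minus strand held 18.4% of the region's hippocampal reads and 27.0% of its cortical reads. Inside Gm26917, 66 junctions were on the plus and 25 on the minus strand. All 100 were flanked by AG before the first base and GT after the last on their listed strand, which is what the junction caller looks for, and the listed strand is the one on which those letters stand.

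The sequence across the join is shown for the 10 junctions of the region with most reads over both tissues, with the last 15 bases of the ring in lower case followed by its first 15 in capitals, on the listed strand.
chr17:39844698-39844867, plus strand: ggccctcgttctgctGTGTGGTGGGACTGC
chr17:39848416-39848682, minus strand: cggtagggtggcgagGCCAGAAAAGCGTGG
chr17:39845055-39845193, plus strand: gtcattgtcccgacgGAGCTGTGGTTTGGA
chr17:39845055-39845215, plus strand: ggtctgttggccgagGAGCTGTGGTTTGGA
chr17:39845058-39845215, plus strand: ggtctgttggccgagCTGTGGTTTGGAGGG
chr17:39845133-39845288, plus strand: tgccggagtgccgagGGGAAAAGGTTGCCC
chr17:39845364-39845519, minus strand: ctcggggagagggagGACGAACCCACCGTG
chr17:39844251-39844401, minus strand: ggcacgggaagacggGGGGGGCGAGGCGAC
chr17:39845026-39845378, plus strand: ctccctctccccgagGGGTAGAAAGTCGGC
chr17:39843775-39843992, minus strand: gcgaccgcgcgggggGCGGTCAGGGGGCGA
The junctions that start at 39845055 share the same capitals, and those that end at 39845215 share the same lower-case bases. The bases come from GENCODE vM21 transcripts. Sequences of the contig junctions are not shown.

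At most of these joins a short run of bases at the ring's start recurs at its end. The exact point of joining therefore cannot be read from the sequence. The run was counted in both directions from each point of joining, so its copies lie partly in the ring and partly just outside it. This shared run was 3 or longer at 37 of 100 junctions (37.0%), with a median of 2 and a longest run of 6. Among all 46141 pairs of AG and GT in the region with a span in the same range, 4.68% shared 3 or more bases. Of the 15 junctions with at least 40 reads, which held 90.5% of the region's reads, 12 shared 3 or more, and none shared fewer than 2. These shares are descriptions of the reference sequence, with no test.

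The rings were short. Their median span was 190.5 bases (range 139 to 1965), against 10225 bases for the 33156 circRNAs outside both places. A span of at most 300 bases was found for 76.0% of the region's junctions, with 94.2% of its reads, and for 11.95% of the others. None of the 100 had an end at an annotated exon limit, whereas 64.3% of the other circRNAs had both ends there and 20.9% had neither. The transcripts from which the region's bases were read are single-exon, with no exon limits inside them. Few limits were thus there for a ring to meet, and this comparison says little about the junctions themselves. Ends were often used more than once: 82 of the 100 junctions shared a first or last base with another junction of the region, against 62.2% of the other circRNAs. The densest spot was a group of 11 plus-strand junctions that start between 39845032 and 39845071 and end between 39845178 and 39845215, with 604 reads. Neighbouring junctions are thus not independent of each other.

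**Figure D2:**
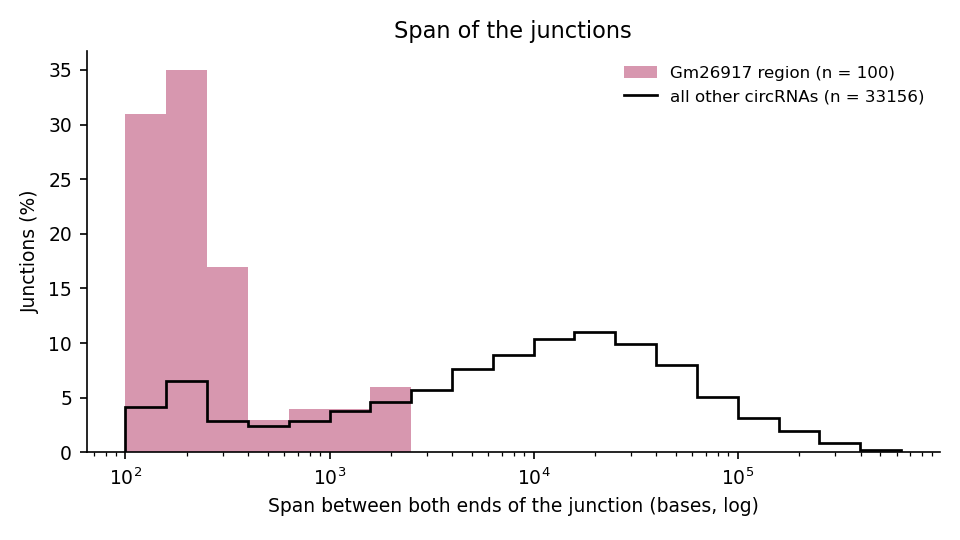
The histogram gives the share of junctions (y axis, %) by span (x axis, bases, log) for the 100 junctions of the Gm26917 region (filled) and the 33156 other circRNAs (line). The region's spans gather at the left, around their median of 190.5 bases, and none exceeds 1965.

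No junction crossed the coordinate limits, and the nearest outside them were far away. The outermost junctions inside were chr17:39843034-39843240, with 2 hippocampal reads, and chr17:39848492-39848759, with 7. Outside, the closest were chr17:37507988-37588006, with 2 cortical reads and 2253994 bases from the limit, and chr17:41828688-41830213, with 2 hippocampal reads and 1979688 bases from it. The next on each side were chr17:37069112-37072287, in Gabbr1, which encodes a subunit of the GABA-B receptor, and chr17:42218521-42219856, each with 2 cortical reads.

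Most junctions of the region were seen in 1 sample. Of those listed, 44 of 72 hippocampal (61.1%) and 37 of 52 cortical junctions (71.2%) had reads in 1 sample, against 61.3% and 58.9% over all listed circRNAs. Of the 100, 24 were listed in both tissues (24%, against 30.9% of all 33261 listed), 48 in the hippocampus alone and 28 in the frontal cortex alone. Reads in 2 or more replicates at the same ZT, the rule for entering the tests, were found for 13 junctions (18.1%) and 9 junctions (17.3%), against 23.2% and 24.2% of all listed. A listed count is never below 2 reads. The junctions chr17:39845055-39845193 and chr17:39845055-39845215 had reads in all 18 hippocampal samples, and none had in all 18 cortical samples.

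Samples differed in depth, with 6754 to 73252 circular reads per hippocampal (median 21924) and 8107 to 34803 per cortical sample (median 20301). Circular reads are the only depth the tables give. The region took 0.79% ± 0.75 of hippocampal and 0.427% ± 0.418 of cortical circular reads (mean ± SD, n = 18 each), and the contigs 0.40% ± 0.28 and 0.775% ± 0.452. The tissue labels matched the marker hosts in part. Hippocampal marker genes hosted circRNAs for 5 of 6 genes in the hippocampus, with 0.203% of reads in the median sample. In the frontal cortex 4 of 6 hosted them, with 0.054%. Ociad2 had no circRNA in either tissue, and Wfs1 had none in the frontal cortex. Circles of 2 and 4 of the 6 cortical markers made up 0.047% and 0.095%, with none of Fezf2 or Rorb. Hosts that mark oligodendrocytes had circles for 3 of 6 genes in the hippocampus (at most 0.024% of reads) and for none in the frontal cortex, astrocyte hosts for 3 of 5 genes in both (at most 0.057% and 0.030%), microglial hosts for none and 1 of 5 (2 reads), and red blood cell hosts for none.

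The most-read junction, chr17:39844698-39844867 on the plus strand of Gm26917, was either at 0 or high. Hippocampal samples held 1328 of its reads, where it ranked 19th of all junctions, and 689 in the frontal cortex, where it ranked 40th. In the hippocampus 8 of 18 samples held them: 194 reads in ZT5 replicate 2, then 183, 187 and 120 in the 3 replicates of ZT13, 153 in ZT17 replicate 3, and 146, 171 and 174 in those of ZT21. The other 10 samples had 0. In the frontal cortex 6 of 18 held them: 75 and 103 reads in ZT1 replicates 2 and 3, 79 in ZT9 replicate 2, 139 and 115 in ZT13 replicates 2 and 3, and 178 in ZT17 replicate 3. No sample of either tissue had a value between 0 and 75 reads.

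By phase, the samples with this junction were 1 of 9 light and 7 of 9 dark hippocampal samples, and 3 of 9 cortical samples in each phase. Since the hippocampal difference led to the choice of the region, its split is a description. Replicates of one time point disagreed: ZT5 and ZT17 in the hippocampus each had 1 high sample and a pair at 0, and ZT1, ZT9, ZT13 and ZT17 in the frontal cortex were mixed as well. Under the same time point and replicate number, 3 pairs of samples had it in both tissues, 5 in the hippocampus alone, 3 in the frontal cortex alone and 7 in neither.

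Samples with and without this junction overlapped in depth. Those with it had 6754 to 25564 circular reads per hippocampal sample (median 22248) and those without it 16463 to 73252 (median 21623). The cortical medians were 20499 and 19932. The other junctions of the region together took a median of 0.276% of reads in hippocampal samples with it and 0.305% in those without, and 0.108% and 0.105% in the frontal cortex. Its neighbour chr17:39844698-39844900, which shares its first base, had 4 and 2 reads in the hippocampus, both in samples where the main junction was at 0. Among cortical samples that neighbour had 2 to 8 reads in 8, 3 of them with the main junction and 5 without. Why the value is 0 in some samples was not tested.

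**Figure D3:**
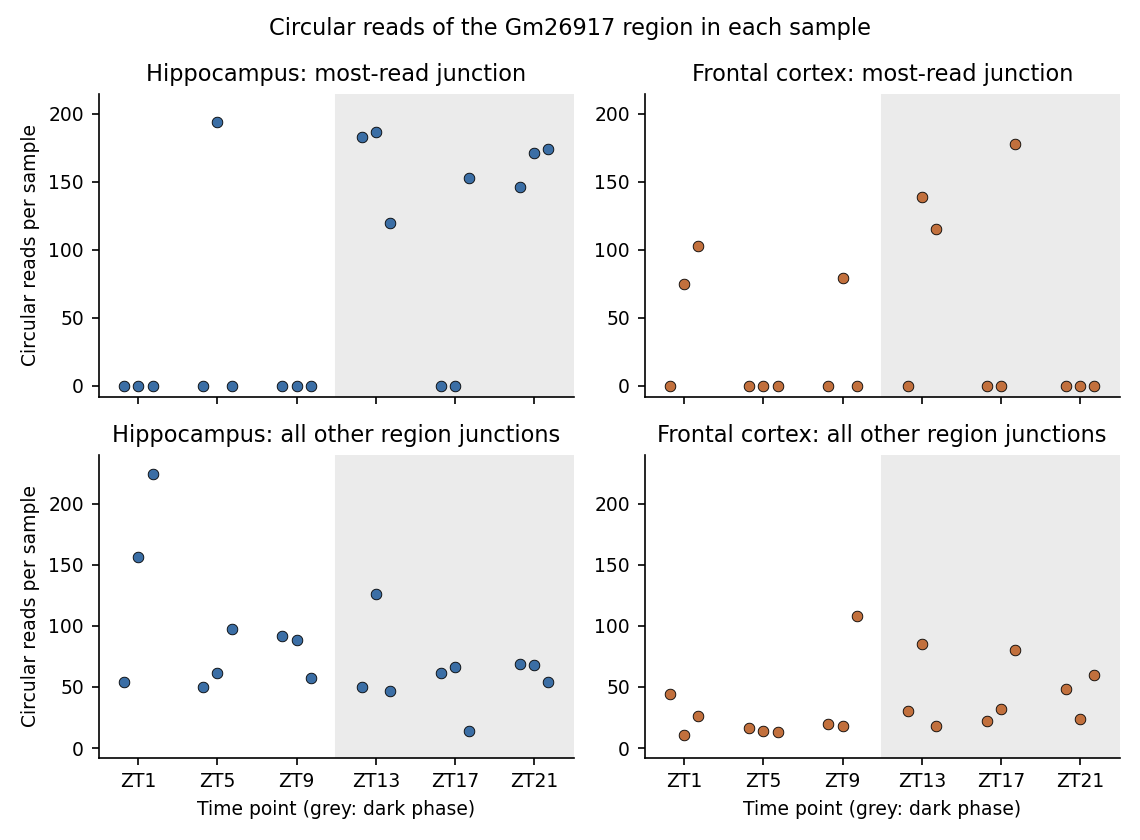
Circular reads per sample (y axis) at each time point (x axis, dark phase in grey), for the most-read junction (top) and for all other junctions of the Gm26917 region together (bottom), in the hippocampus (left) and the frontal cortex (right); each point is 1 sample. The most-read junction has 8 hippocampal points at 120 to 194 and 6 cortical points at 75 to 178, with all others at 0, while the bottom panels show reads in every sample.

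This behaviour was shared by other junctions of the region. Of its junctions with at least 40 reads in a tissue, 5 of 10 hippocampal and 4 of 7 cortical ones had them in at most 9 of 18 samples (50% and 57.1%), against 34 of 1789 (1.90%) and 27 of 1574 (1.72%) of the circRNAs outside both places. Among the latter, a circRNA of Nell2 (chr15:95296159-95346887) had more reads than any junction of the region, 2779 in 8 hippocampal samples and 765 in 3 cortical samples. The minus-strand junction chr17:39845364-39845519 had 40, 29 and 24 reads in 3 hippocampal samples (ZT1 replicate 2, ZT13 replicate 2 and ZT17 replicate 1) and 29, 27 and 22 in 3 cortical samples (ZT13 replicate 2, ZT21 replicates 1 and 3), and 0 elsewhere. The minus-strand junction chr17:39844251-39844401 had 63 and 36 reads in the frontal cortex, in ZT9 replicate 3 and ZT17 replicate 3, and none in any hippocampal sample. At chr17:39845026-39845378, 6 hippocampal samples had 3 to 28 reads and 1 cortical sample had 16. The cortical sample ZT17 replicate 3 held the last of these as well as the minus-strand junction before it. With values from 3 to 28, that last junction was not either at 0 or high. The cortical junctions counted above also include chr17:39848416-39848682, which had reads in 15 of 18 hippocampal samples.

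**Figure D4:**
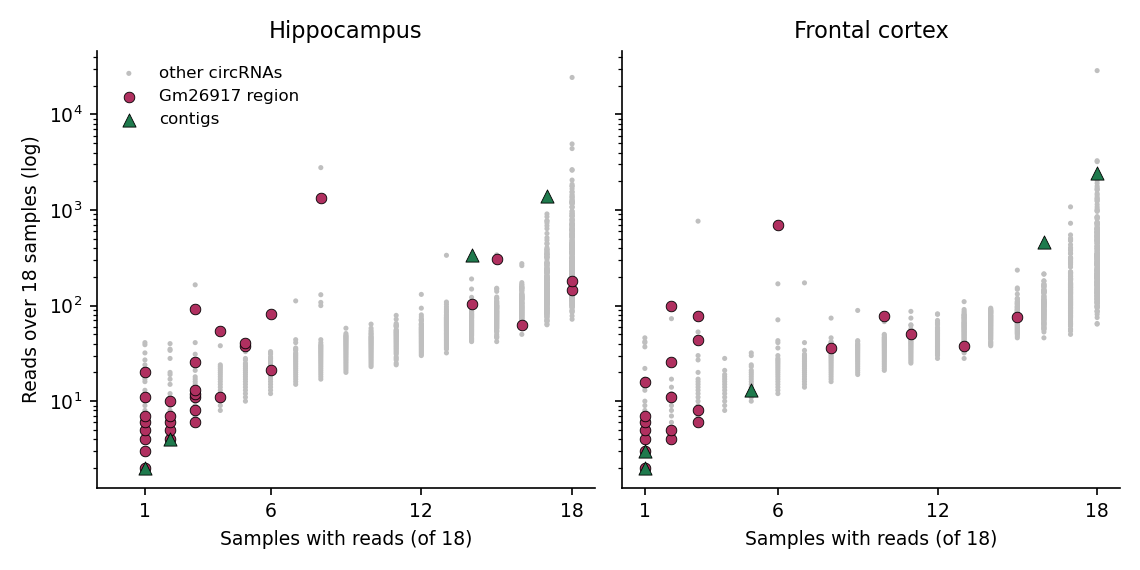
Reads over 18 samples (y axis, log) against the number of samples with reads (x axis), for junctions of the Gm26917 region (red), contig junctions (green triangles) and all other circRNAs (grey), by tissue. Several red points lie above most grey points at the same number of samples, the highest with 1328 reads in 8 hippocampal and 689 reads in 6 cortical samples, and a grey point, the circRNA of Nell2, is higher still with 2779 reads in 8 and 765 in 3.

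The junctions that were seen in most samples had few reads in each. At chr17:39845055-39845193 the hippocampal samples had 3 to 31 reads (median 9), all above 0, and the frontal cortex 0 to 7 (median 3.5), with reads in 11 of 18. At chr17:39845055-39845215 they had 3 to 20 reads (median 7.5) and 0 to 9 (median 4.5, 15 of 18). At chr17:39845058-39845215 reads were found in 16 hippocampal samples, with up to 10, and in 13 cortical samples, with up to 5. At chr17:39845133-39845288 they were found in 14 hippocampal samples, with up to 16, and in 2 cortical samples, with 2 each. The 8 hippocampal junctions that start within 5 bases of 39845055 together had reads in all 18 samples (415 reads), and so did the 5 cortical ones (168 reads).

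The comparison of the tissues asks which junctions differ in level between the hippocampus and the frontal cortex, and for the region it was not used in the choice. In bulk tissue, fewer cells of a type and less RNA per cell cannot be told apart. Of the 710 circRNAs with enough reads, 217 (30.6%) passed an adjusted p of 0.05 (edgeR quasi-likelihood test, Benjamini-Hochberg over all tested). Of the 11 junctions among them that belong to the region or the contigs, 4 passed (36.4%), 2 higher in each tissue, a share near that of all circRNAs. The 4 include the main junction of JH584304.1, which had been noted for its cortical reads. DESeq2 also called 4 of 11, of which 3 were the same junctions, and 236 of the 710 in all (33.2%). Another 5 of the 11 were at 0 in whole time points of both tissues, and their mean log level over time points could not be determined. Without the low-count filter the shares were further apart, with 6 of 19 such junctions called against 346 of 6656 circRNAs (5.2%). Enough reads for the filter were held by 11 of those 19 and by 710 of the 6656, so these 2 shares do not compare sets of like depth.

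Higher in the hippocampus were 2 junctions of the region. The first, chr17:39845055-39845193 on the plus strand, had a level of 4.92 ± 4.19 per 10000 circular reads there and 1.62 ± 1.67 in the frontal cortex (mean ± SD, n = 18 each). Its log2 difference was 1.70 (SE 0.38, edgeR adjusted p = 0.000718), while the ranges of the samples overlap (1.56 to 20.7 against 0 to 4.93). The second, chr17:39848416-39848682 on the minus strand, lies after the 18S stretch, inside the annotated CT010467.1. It had reads in 15 hippocampal samples (up to 53) and in 3 cortical samples, with 15, 15 and 14 in ZT13 replicates 1 and 2 and ZT21 replicate 3. Its levels were 7.15 ± 3.94 and 1.47 ± 3.42, a ratio of means of 4.87 (edgeR adjusted p = 4.1e-05), and its samples also overlap, since 3 hippocampal samples were at 0. The neighbour chr17:39845055-39845215 had levels of 4.31 ± 5.0 and 2.12 ± 1.35 and did not pass (log2 difference 0.75, SE 0.31, edgeR adjusted p = 0.064), though it did with DESeq2 (adjusted p = 0.031) and in the edgeR test with any 1 of 7 samples left out.

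Higher in the frontal cortex was the minus-strand junction chr17:39843775-39843992 in Gm26917. It had 4 to 13 reads in 10 of 18 cortical samples, and 11 reads in a single hippocampal sample, ZT5 replicate 1. Hippocampal levels were 0.371 ± 1.58 and cortical levels 1.94 ± 2.00, a ratio of means of 5.23 (edgeR adjusted p = 0.00446). The call was lost with DESeq2 (adjusted p = 0.124), and the value could not be determined without ZT5 replicate 3, ZT13 replicate 3 or ZT17 replicate 2 of the frontal cortex, each the only one of its time point with reads. The fitted fold of this and of the preceding minus-strand junction depends on how 0 is treated, so ratios of means are given.

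Between times of day no junction of the region or the contigs passed in the edgeR test. In the hippocampus 0 of 7 tested passed over the 6 time points, where 0% of 582 circRNAs passed, and 0 of 7 between dark and light, where 0% passed too. At an unadjusted p of 0.05 they were 1 of 7 over the time points (3.26% of all) and 2 of 7 between phases (4.81% of all). In the frontal cortex 0 of 5 passed over the time points, where 1 circRNA of 518 did (0.193%), and 0 of 5 between phases, where 0% did, although that contrast could not be determined for 3 of the 5, which were at 0 in whole time points. At an unadjusted p of 0.05 they were 4 of 5 (2.32% of all) and 0 of 5 (3.09% of all). DESeq2 called 1 of 7, the most-read junction, between phases in the hippocampus and none in the other 3 comparisons. The hippocampal comparisons led to the choice of the region, so nothing is read from their counts. The cortical comparisons were not its main ground, but a cortical step of a Gm26917 junction and the cortical reads of JH584304.1 had been noted in the choice. Nothing is therefore read from the cortical counts either. The 4 cortical junctions were the most-read one, chr17:39845364-39845519 and both frequent JH584304.1 junctions, and after adjustment over all circRNAs none passed. Those 2 JH584304.1 junctions share one end. With DESeq2, 0 of the 5 had an unadjusted p under 0.05 over the cortical time points.

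The contigs held 5 junctions, all listed in both tissues, and 1 of them led the rest by far. JH584304.1:25369-60857, on the minus strand, spans 35489 bases and had 1394 hippocampal reads (rank 16) and 2440 cortical reads (rank 4). JH584304.1:25369-59773 shares one end with it and had 335 and 459 reads (ranks 161 and 88). The only annotated gene between the ends is AC149090.1, a protein-coding gene named by its clone, at JH584304.1:52190-59690 on the same strand. Both junctions reach 26821 bases beyond it at one end, and 1167 and 83 bases beyond it at the other, and neither has an end at an annotated exon limit. A further junction of the contig, JH584304.1:56986-59773, begins at an exon limit of that gene and had 4 and 3 reads.

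The other contig junctions were rare. GL456216.1:31059-34831 runs from the start of exon 3 to the end of exon 6 of CAAA01118383.1, a protein-coding gene named by its clone, and was the only member of all 105 with both ends at annotated exon limits. It had 4 reads in 2 hippocampal samples and 13 reads in 5 cortical samples. GL456233.1:154626-285515 ends at an exon limit of Tmlhe, which encodes the first enzyme of carnitine synthesis, and had 2 reads in 1 sample of each tissue.

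The main junction of JH584304.1 was found in all 18 cortical samples, with 19 to 397 reads (median 124.5), and in 17 of 18 hippocampal samples, with up to 230 (median 75). The exception was hippocampus ZT13 replicate 1, the shallowest sample, with 0 contig reads of 6754. If no read was there, this allows a share of up to 0.0444% (3 reads, counting error only). Since a listed count is never below 2, the limit may be higher. The hippocampal level of the main junction was 32.3 ± 21.5 per 10000 circular reads (0 to 96.8, median 33.1) and its cortical level 64.7 ± 37.5 (9.19 to 132, median 59.6). The tissues overlap over most of that range. The junction was noted for its cortical reads, so this difference, a ratio of means of 2.00, is a description.

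The main junction varied more between samples than the other frequent circRNAs that were found in nearly all samples. The coefficient of variation of its level was 66.6% over hippocampal and 58.0% over cortical samples. Among the 50 most-read circRNAs of each tissue, 48 were found in at least 17 samples. Their median was 20.7% and 24.8%, and the highest besides this junction was 51.7% and 52.5%. The remaining 2 of the 50, the most-read Gm26917 junction (153.3% and 150.5%) and the circRNA of Nell2 (115.6% and 233.0%), were at 0 in many samples and varied more. Levels were spread both between and within time points. Cortical means ran from 29.0 ± 18.3 per 10000 at ZT17 to 116 ± 15.8 at ZT1 (n = 3 each), and the 3 samples of ZT1 (100.7 to 132.3) lay above all those of ZT5, ZT13 and ZT17. Within time points, ZT21 replicate 2 had 397 reads of 34803 while ZT21 replicate 3 had 87 of 16142, and ZT5 replicate 1 had 169 of 19724 while ZT5 replicate 2 had 19 of 16773. In the hippocampus, light samples stayed between 23.1 and 45.2 per 10000 (mean 34.2 ± 7.81, n = 9) and dark samples ranged from 0 to 96.8 (mean 30.3 ± 30.2, n = 9). Cortical means by phase were 75.0 ± 43.1 and 54.3 ± 29.7 (n = 9 each).

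**Figure D5:**
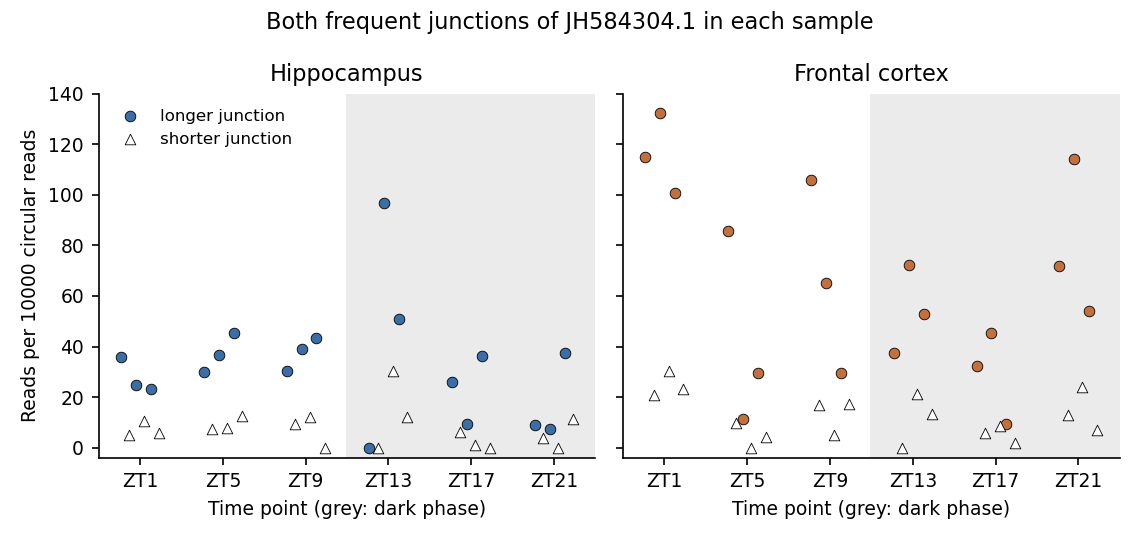
Level (y axis, reads per 10000 circular reads) of the longer (circles, ending at 60857) and the shorter (triangles, ending at 59773) frequent junction of JH584304.1 in each sample, by time point (x axis, dark phase in grey). The longer junction ranges from 0 to 96.8 over hippocampal and from 9.19 to 132 over cortical samples, with wide gaps between replicates of one time point.

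Both frequent JH584304.1 junctions tended to be high in the same samples. The shorter one made up a median of 21% of their joint reads in the 14 hippocampal samples that held it (8.70% to 30.4%) and 15.7% in 16 cortical samples (7.14% to 36.8%). Their levels correlated with Pearson's r of 0.83 in each tissue and Spearman's rho of 0.65 and 0.80 (18 samples each, as a description, since both come from the same libraries). Between samples of both tissues with the same time point and number the level of the main junction had an r of -0.13 and a rho of -0.31 (18 pairs, as a description). The other region junctions, taken without the most-read one, gave r = -0.13 and rho = 0.04 in the same way.

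The circRNAs whose levels ran most like these junctions were found by Spearman's rho over the 18 samples of a tissue, among 2356 hippocampal and 2157 cortical circRNAs found in at least 9 samples. For the most-read junction of the region they came from Tasp1 (rho 0.73), Pank1 and Tom1l2 (0.72 each) in the hippocampus and from Mtmr3 (0.74), Ddx10 and Kdm2a (0.68 each) in the frontal cortex. For the main JH584304.1 junction they came from Scn8a (0.76), Zfp62 (0.70) and Adcy9 (0.68) in the hippocampus and from A230006K03Rik (0.86), Chsy3 (0.84) and Map3k5 (0.76) in the frontal cortex. The tissues shared no circRNA among these. The highest values of so many comparisons are a ranking and no more.

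Genes that make and process rRNA also hosted circRNAs, with few reads each. Of 11 genes of RNA polymerase I and its factors, 5 hosted hippocampal circRNAs (17 circRNAs, 63 reads) and 3 hosted cortical ones (8 circRNAs, 37 reads). Of 44 genes for processing of the precursor, 21 hosted 52 circRNAs with 434 reads and 16 hosted 43 with 393 reads. The circRNAs of these processing genes made up a median of 0.097% and 0.108% of circular reads per sample, less than the region or the contigs. Without its most-read junction, however, the region had a cortical median of 0.105%, near that of these genes. None of these circRNAs had enough reads to enter a test.

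The further column for hippocampus ZT1 replicate 3 showed a smaller set of the same junctions. It holds 14951 circular reads against 73252 in the column used. Of the 28 member junctions in the column used, 9 appear in it, with 79 reads against 438, and no member appears in it alone. The region took 40 reads in 7 junctions, the contigs 39 reads in 2, and the most-read junction of Gm26917 was at 0 in both columns.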

How the data were processed

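Per the labels and the study's methods, the authors depleted rRNA, mapped reads with BWA to GRCm38 and called back-splice junctions with CIRI2, and deposited whole-number counts of circular reads per junction and sample, not normalized. Which deposited counts came from reads with several possible positions is not given in the sources used here. Levels are reads per 10000 circular reads. Junctions with reads in 2 or more replicates at the same ZT entered edgeR 4.0.16 (R 4.3.3; TMM normalization, filterByExpr at default settings, quasi-likelihood test, p-values adjusted by Benjamini-Hochberg over all circRNAs tested, threshold 0.05), with 6 time points as groups in each tissue, or 12 groups of 36 samples for the tissues. The script was tested on simulated data. Bases were read from GENCODE vM21. Intervals and floors cover counting error only.

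In each tissue, and for the region and contigs separately, the 5 most-read junctions, those found in at least 12 samples and those past a threshold are named. The junctions chr17:39844698-39844900 and chr17:39845026-39845378 and the circRNA of Nell2 were named after their values were seen. For the most-read junction of each place, the 3 circRNAs of highest Spearman's rho are named, and the 2 nearest junctions on each side of the region. The members and lists were chosen with earlier results of these data known. Alternatives were total reads, DESeq2 size factors, DESeq2 1.42.0, no filter, all listed circRNAs, each sample left out, a replicate block, the further column and a 2-level factor. Python 3.11.15, pandas 2.3.3 and SciPy 1.17.1 were used.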

Additional observations from a re-analysis of the deposited data

Results flagged for a closer look

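In groups of 9 samples (1 tissue in 1 phase), 6 of 20 combinations of group and measure held an outlying sample. Its distance from the nearest other was, relative to the group's range, above Dixon's 95% limit, which chance passes in about 1 of 20. The measures overlap, since the region's share includes the most-read junction, and hippocampal values of a Gm26917 junction led to the choice of the region. In light hippocampal samples that most-read junction was above 0 in only 1 of 9. The number of flags is therefore a description and is not set against chance. In the hippocampus ZT13 replicate 1, with 6754 circular reads the shallowest sample, stood out for the region's share, 3.45% (exact 95% interval 3.03% to 3.91%), and for the level of the most-read region junction, 271 per 10000 circular reads. ZT5 replicate 2 was the only light sample with that junction, at 82.8 per 10000, and had a region share of 1.09% (0.96% to 1.23%). ZT13 replicate 2 had the highest hippocampal contig share, 1.27% (1.13% to 1.42%). In the frontal cortex ZT9 replicate 3, with 8107 circular reads, had 1.33% of them in region junctions other than the most-read one (1.09% to 1.61%). The further column for hippocampus ZT1 replicate 3, outside the comparisons, held 79 member reads, above the 3 reads taken as the floor. The cause of these values was not tested.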

How the results depend on the processing

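Counts of members called were the most dependent on the processing. In the hippocampus, 0 members called between dark and light became 1 of 7 with total circular reads and with DESeq2 (1 of 582 circRNAs in all, 0.172%, under each) and 2 of 16 without the low-count filter (4 of 5505, 0.0727%), and 0 over the time points became 4 of 16 without it (14 of 5505, 0.254%). In the frontal cortex, 0 over the time points became 5 of 11 without it (12 of 4790, 0.251%). Leaving out single samples gave 0 to 1 in both hippocampal comparisons, 1 over the time points without ZT5 replicate 2 or ZT17 replicate 3 and between phases without ZT5 replicate 2, ZT17 replicate 1 or ZT17 replicate 2, and 3 to 5, against 4, between the tissues. There it was 3 without frontal cortex ZT5 replicate 1, ZT5 replicate 3, ZT13 replicate 3 or ZT17 replicate 2, and 5, with chr17:39845055-39845215, without frontal cortex ZT13 replicate 2, ZT17 replicate 1 or ZT21 replicate 2 or hippocampus ZT9 replicate 2, ZT13 replicate 3, ZT17 replicate 3 or ZT21 replicate 2. Members kept in the region went from 13 to 7 (hippocampus) and from 9 to 4 (frontal cortex) when all 3 replicates were required, and to 72 and 52 when 1 sample sufficed. Contig members kept went from 3 to 5 and from 2 to 5 when 1 sample sufficed. With the replicate block 3 of 11 members were called between the tissues, against 4, and 0 in each other comparison. Of all 710 circRNAs the block called 168 between the tissues, against 217. With single samples left out, 212 to 245 circRNAs were called there in all. Without the low-count filter 6 of 19 members were called between the tissues (346 of 6656, 5.2%). Deviations of samples with the same time point and number in both tissues had a median correlation of -0.008 (range -0.17 to 0.15, 18 pairs). Counting noise can also bring such values near 0, so they do not settle whether the numbers pair the samples. A 2-level factor for phase or tissue, chosen after seeing the data, left 0 members called between phases in each tissue. Between the tissues it called 4 of 11 (218 of 710 circRNAs in all). Mean shares moved by less than 1 SD: without single samples the region's share ranged from 0.63% to 0.82% and from 0.37% to 0.45%, and that of the contigs from 0.35% to 0.42% and from 0.73% to 0.81%. Between tissues no direction reversed. The main JH584304.1 junction missed the threshold without frontal cortex ZT5 replicate 1. The call of chr17:39843775-39843992 was also lost under the replicate block (edgeR adjusted p = 0.095). The cause was not tested.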
